A study of Camelina sativa with 12 samples.

Results

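Roots and shoots of unstressed camelina (Camelina sativa, line DH55) were compared in 6 RNA-Seq libraries of the 12 in the series, 3 from control roots and 3 from control shoots. The comparison covered the 49230 genes, of 49932 listed, that reached 1 CPM or more in at least 3 of these 6 libraries, and the libraries were taken by organ and treatment alone. Control plants were grown for 28 days in pots of soil-less mixture in a growth chamber and watered with tap water, and the study calls the 3 libraries of a group biological replicates, which the labels only number. The other 6 libraries come from roots and shoots of plants of the same line and age that were watered with NaCl solution. They served to repeat the organ contrast with salt and to test whether organ differences changed. An alternative fit of the control contrast also used all 12 libraries. Root and shoot are whole organs holding many cell types. In such bulk samples, fewer cells of a type and less RNA per cell cannot be told apart.

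Shoots carry out photosynthesis in chloroplasts, and their epidermis is sealed with a cuticle of cutin and wax. Roots are heterotrophic, take up water and mineral ions, and in crucifers store defence compounds such as glucosinolates together with the enzymes that activate them. Camelina is a hexaploid relative of Arabidopsis, so most genes exist as homeologues in its 3 sub-genomes, and the roles given here were mostly established in Arabidopsis.

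The unit throughout is CPM (counts relative to the mapped reads of a library, normalised further by the authors and rounded to whole numbers), and values in individual libraries are given in the order of replicates 1, 2 and 3. Differences are on the log2(CPM + 0.5) scale with their standard error from limma, and each p is adjusted (Benjamini-Hochberg) for the 49230 genes tested. A gene was called at an adjusted p of at most 0.05 and a log2 difference above 1. CPM is not divided by transcript length, so the tests compare organs and not genes. Rankings of genes by level are not corrected for length. Where every library of an organ listed a gene at 0, the values alone are given, since a fold against 0 has no meaning in a table without counts. Standard errors of low genes do not cover the rounding, which makes 1 the smallest step.

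The 6 libraries separated by organ. Log2 values of libraries of the same organ were correlated across genes at r = 0.975 to 0.986 in roots and 0.977 to 0.983 in shoots, while the 9 root and shoot pairs had r = 0.425 to 0.483 (genes are not independent replicates). Library sums lay at 882288 to 899673 in roots and at 1081955 to 1117956 in shoots, and read depth is unknown. The number of genes at 1 or more was nearly equal, 46998 to 47227 in root and 47025 to 47215 in shoot libraries.

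Shoots put more of their transcript into few genes. The 10 most abundant genes held 2.44% ± 0.17 (SD, n = 3) of the summed value of a root library and 4.40% ± 0.07 of a shoot library. The 100 most abundant held 9.29% ± 0.37 and 13% ± 0.32, and the 1000 most abundant 26.2% ± 0.47 and 34.1% ± 0.52. A root library needed 4500 to 4637 genes to reach 50% of its summed value, a shoot library only 3037 to 3195. The organs did not overlap in any of these measures, and each had an exact two-sided permutation p of 0.1, the smallest that 3 libraries against 3 allow. Genes encoding the Rubisco small subunit made up 2.44% ± 0.09 of the shoot values and 0.0021% ± 0.0011 of the root values. With these genes left out, the shoot shares were 3.13% for the 10 and 11.4% for the 100 most abundant genes, still above those of roots.

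**Figure D1:**
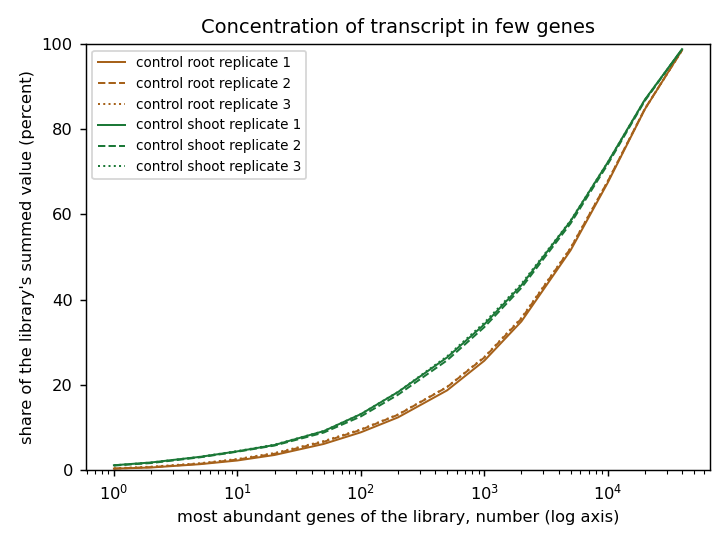
Share of each library's summed value (percent, vertical axis) held by its most abundant genes (number of genes, log axis), with a line for each of the 3 control root and 3 control shoot libraries. The shoot lines run above the root lines, with 33.5% to 34.6% of the value in the 1000 most abundant genes against 25.7% to 26.5% in roots.

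The organ of origin separated a large part of the transcriptome. Of the 49230 genes tested, 15893 (32.3%) were called, of which 7462 (15.2%) were higher in roots and 8431 (17.1%) in shoots. Root and shoot values did not overlap for 31903 genes (64.8%), and 58 of the called genes did overlap. With each library scaled to a total of 1000000 the split was 10432 genes higher in roots and 7326 in shoots, so roots held 58.7% of the calls against 47% with the values as deposited. That scaling moved the median difference of all genes from 0.10 to 0.39 towards roots. The balance of the directions therefore depends on the scale, and small differences are to be read relative to that shift.

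The shoot side held the larger differences. The median difference of called genes was 2.48 on the log2 scale for those higher in shoots and 1.83 for those higher in roots. A difference above 3 was seen for 3323 genes higher in shoots and 1648 higher in roots, one above 5 for 1093 and 365, and one above 7 for 361 and 72. Among genes listed at 0 in every library of the other organ, 866 were at 10 or more in every shoot library and 367 in every root library. At 100 or more, the numbers were 131 and 29.

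Direction also changed with abundance. Among the 6399 genes with a mean of the 6 libraries under 3, 27.9% were called higher in roots and 18% in shoots. At a mean of 10 to 30 the shares were 11.6% and 16.5% of 15859 genes. At 100 to 300 they were 15.1% and 33% of 1000 genes, and at 300 to 1000 they were 16.0% and 54.5% of 200 genes. Of the 22 genes with a mean of 1000 or more, 13 were called higher in shoots and 6 in roots. Calls rest on low values for 707 genes higher in roots and 332 higher in shoots, whose mean in the higher organ was under 3.

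**Figure D2:**
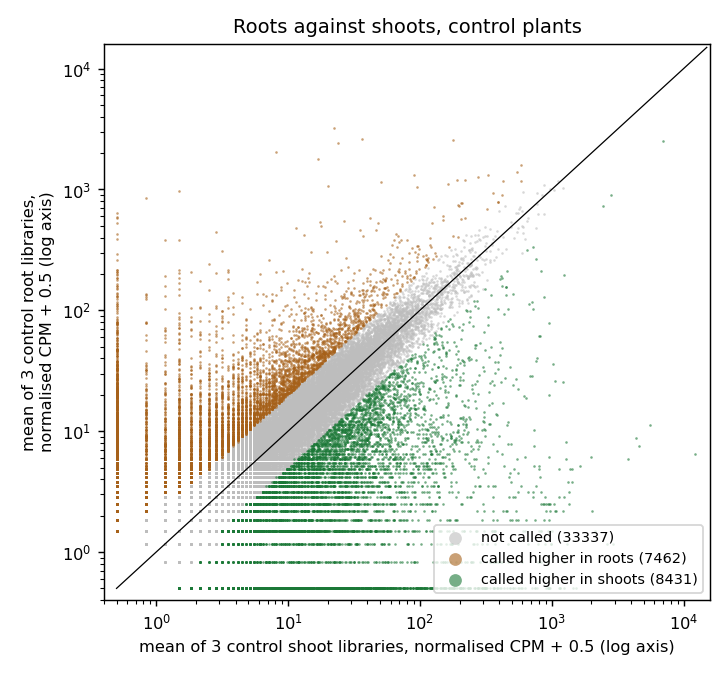
Mean value of each of the 49230 genes tested in the 3 control shoot libraries (horizontal) and the 3 control root libraries (vertical), both as CPM + 0.5 on log axes, with the line of equal values. Brown points are the 7462 genes called higher in roots, green points the 8431 called higher in shoots and grey points the 33337 not called, and the genes of highest value lie on the shoot side.

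Marker genes of each organ are given first. The 20 shoot markers, which encode Rubisco small subunits and proteins of the light reactions, summed to 28789, 26348 and 27620 in shoots and to 15, 33 and 16 in roots, where 14 or 15 of the 20 were at 0. Of the 20, 16 come from the study's sheet of genes that fell with salt in shoots. That sheet was chosen with the same control shoot libraries, so these sums are not an independent check. The root markers were weaker. Of 8 genes chosen, 5 (3 copies of the iron transporter IRT1 and 2 of the nitrate transporter NRT2:1) are not analysed here, and the other 3 summed to 12, 15 and 20 in roots and 6, 5 and 6 in shoots. Ethylene Insensitive Root 1 (Csa11g090640), the auxin efflux carrier of the root tip, was at 11, 13 and 18 in roots and at 1 in each shoot library, a difference of 3.24 ± 0.18 (adjusted p = 6.91e-05). Ferric reduction oxidase 2, which reduces iron at the root surface of Arabidopsis, did not mark roots here. Csa14g001580 was at 0, 1 and 1 in roots against 3, 2 and 3 in shoots (1.59 ± 0.49 higher in shoots, adjusted p = 0.037, a call lost with a replicate block, with a pseudocount of 0.1, without moderation of the variance and without 5 of the 6 libraries in turn), and a further copy, Csa03g001650, was at 1 in each root and 2 in each shoot library.

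Gene names were taken from the study's text and from its sheets of genes that responded to salt in shoots. They cover 1159 of the genes tested, of which 264 (22.8%) were called higher in roots and 517 (44.6%) in shoots. Both shares are above the 15.2% and 17.1% of all genes, and since the sheets were chosen with the same control shoot libraries, the groups below are not independent evidence of a direction. Their counts are given as a description beside the median of all genes tested, 0.10. They are to be read against the 22.8% and 44.6% of all named genes.

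**Figure D3:**
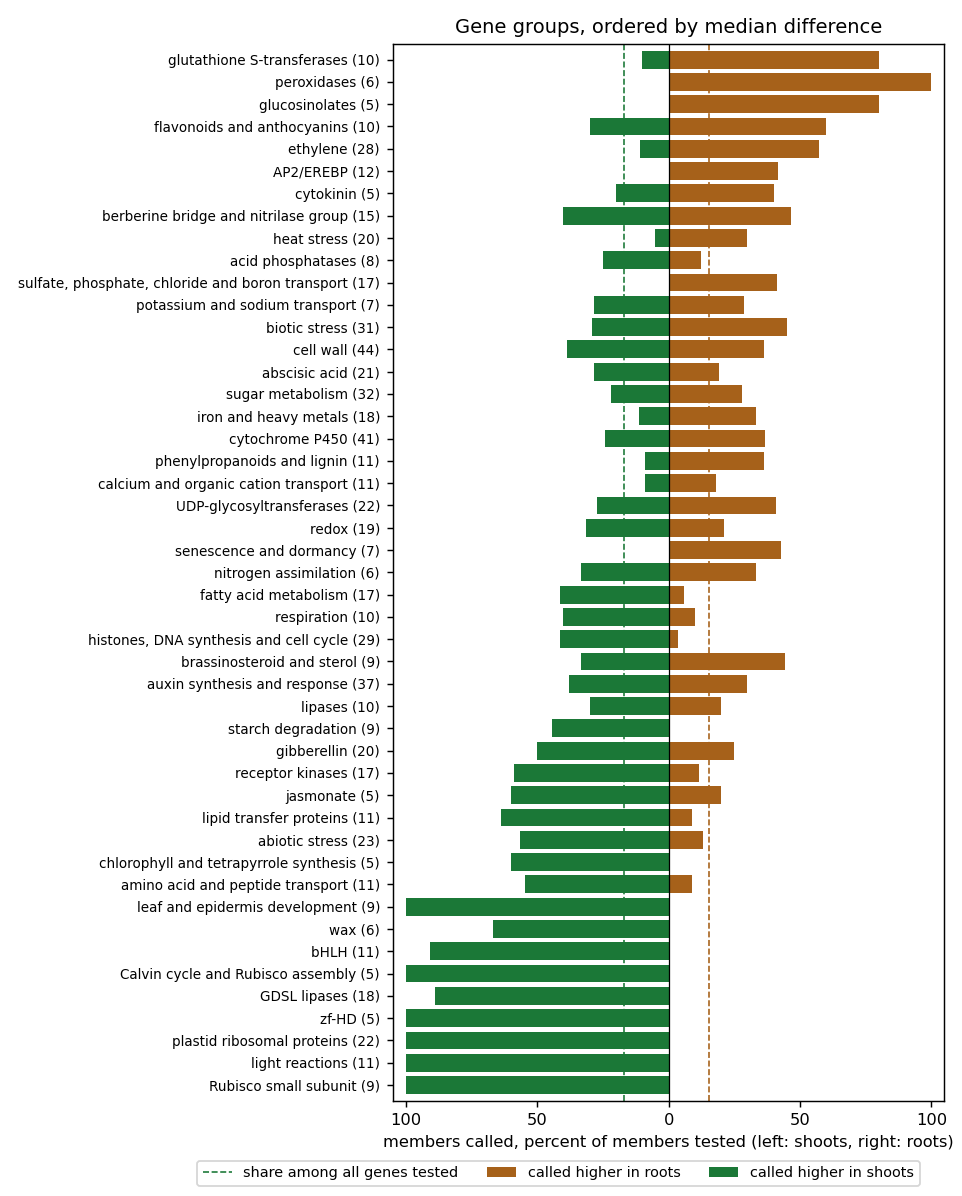
Share of the tested members of each gene group (percent) called higher in shoots (green, to the left) and in roots (brown, to the right), for groups with 5 or more tested members, whose number stands in brackets. Groups are ordered by their median log2 difference, from glutathione S-transferases to the Rubisco small subunit, and the dashed lines mark the shares among all genes tested, 15.2% in roots and 17.1% in shoots.

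Every tested gene of the photosynthetic groups was higher in shoots. This held for 9 of 9 Rubisco small subunit genes, 11 of 11 genes of the light reactions and 5 of 5 genes of the Calvin cycle and Rubisco assembly. RBCS1A (Csa16g026850) encodes the small subunit of the enzyme that fixes carbon dioxide. It was at 12600, 11583 and 12546 in shoots, the highest value in each shoot library, and at 4, 10 and 4 in roots (11 ± 0.36, adjusted p = 9.03e-06). Its homeologue Csa05g079910 was at 6032, 5334 and 5464 in shoots and 7, 16 and 9 in roots (9.05 ± 0.30). A further Rubisco small subunit gene, Csa12g084200, was at 1529, 1392 and 1426 in shoots and at 0 in all root libraries. Roots thus had low values of RBCS1A. A listed 0 can be a rounded value, and Csa12g084200 was at 1 in each salt-treated root library.

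Carbonic anhydrase 1 (Csa00532s290), an abundant chloroplast enzyme that interconverts carbon dioxide and bicarbonate, was at 1563, 1473 and 1571 in shoots and at 0 in roots. Of the 11 genes of the light reactions, 9 were at 0 in every root library. PsbQ-like 1 (Csa19g001450), needed by the chloroplast NDH complex, was at 225, 256 and 237 in shoots. Photosystem I subunit D-1 (PSAD-1, Csa08g050560), which docks ferredoxin, was at 125, 115 and 116. The antenna gene LHB1B1 (Csa06g036870) was at 56, 35 and 47 and LHCA6 (Csa14g024490) at 14, 14 and 15, and none of these had a value above 0 in roots. Chaperonin 60 beta (CPN60B, Csa14g067340), which folds the large subunit of Rubisco, was present in both organs, at 502, 537 and 507 in shoots against 4, 4 and 5 in roots (6.74 ± 0.09, adjusted p = 3.30e-07). Chaperonin-60alpha (Csa05g039850), of the same complex, differed less, with 377, 394 and 400 against 37, 37 and 36 (3.39 ± 0.04, adjusted p = 1.08e-07).

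Plastid ribosomal proteins formed the most uniform group. All 22 tested genes were higher in shoots, by 4.04 to 5.79 on the log2 scale, with a median root minus shoot difference of -4.45. None of them was at 0 in all root libraries. Plastids other than chloroplasts also hold ribosomes, but a root value above 0 can be a rounded 1 in 1 library, as for RPL12-C below. The most abundant, a Ribosomal L29 family gene (Csa11g102440), was at 456, 618 and 519 in shoots and 23, 34 and 23 in roots (4.30 ± 0.20, adjusted p = 3.23e-05). The largest difference belonged to RPL12-C (Csa06g008960), with 42, 35 and 42 against 0, 1 and 0 (5.79 ± 0.48).

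Of 5 genes of chlorophyll and tetrapyrrole synthesis, 3 were higher in shoots and the remaining 2, both chlorophyllase 2, were not called. Glutamate-1-semialdehyde 2,1-aminomutase (GSA2, Csa06g022540), an early enzyme of chlorophyll synthesis, was at 99, 93 and 82 in shoots and 2, 2 and 3 in roots (5.03 ± 0.16). ABA deficient 1 (Csa02g075650), the zeaxanthin epoxidase of the xanthophyll cycle and of abscisic acid synthesis, was at 116, 115 and 155 against 8, 10 and 9 (3.76 ± 0.15, adjusted p = 1.79e-05), and its 2 homeologues were also higher in shoots. The cyclophilin ROC4 (Csa05g094290), located in the chloroplast, was at 291, 286 and 263 against 7 in each root library (5.22 ± 0.05).

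Photorespiration recycles the product of the oxygenase reaction of Rubisco in leaves. A gene of this group encoding a single hybrid motif protein (Csa03g036840) was at 53, 56 and 58 in shoots and at 0 in roots. The 3 homeologues of glycolate oxidase in the group went the other way. Csa11g030110 was at 28, 29 and 32 in roots against 4, 5 and 3 in shoots (2.77 ± 0.18, adjusted p = 1.13e-04). Glycolate oxidases form a small family in Arabidopsis, and other members were not analysed under this name.

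**Figure D4:**
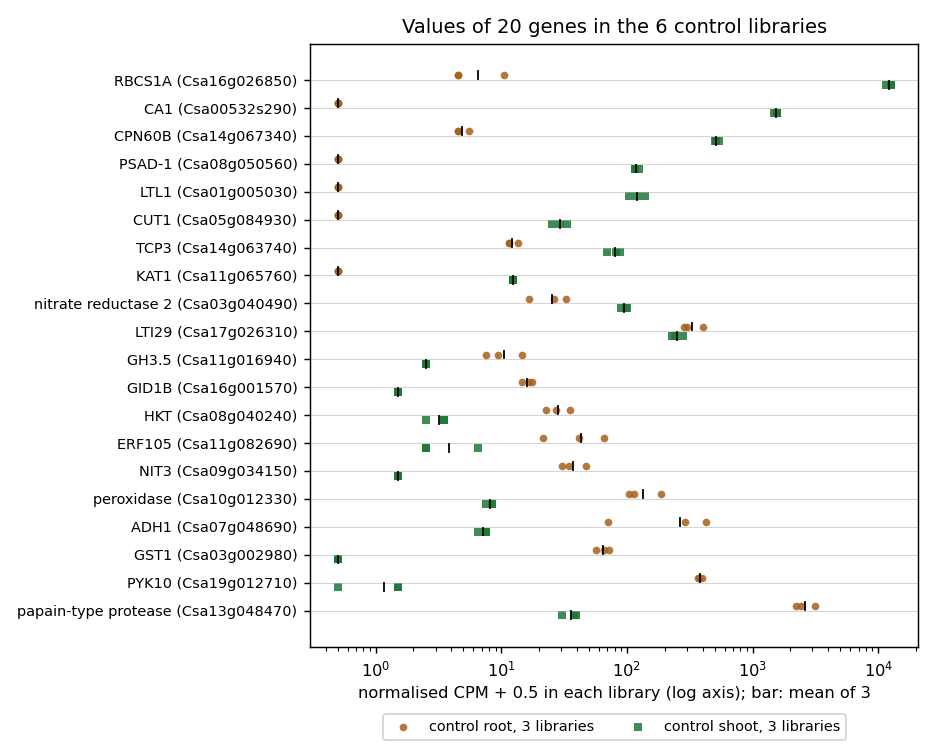
Values of 20 named genes in each of the 3 control root (brown circles) and 3 control shoot (green squares) libraries, as CPM + 0.5 on a log axis, with a black bar at the mean of each organ. The organs do not overlap for any of the 20 genes and lie closest for the dehydrin LTI29, whose lowest root value was 283 and highest shoot value 280, and the leftmost position, 0.5, stands for a value of 0.

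Many genes of the GDSL lipase and wax groups were at 0 in roots. GDSL lipases, a family that includes cutin synthases, were higher in shoots in 16 of 18 cases, and 11 of the 18 were at 0 in all root libraries. Their median root minus shoot difference was -4.05, and -3.51 and -6.23 with pseudocounts of 1 and 0.1. Li-tolerant lipase 1 (LTL1) had the largest difference, with Csa01g005030 at 103, 139 and 119 in shoots and Csa15g005200 at 73, 107 and 86, and both were at 0 in every root library. The 3 homeologues of CUT1, the ketoacyl-CoA synthase that elongates fatty acids for wax, were all at 0 in roots, and Csa05g084930 was at 29, 25 and 33 in shoots. The remaining 3 wax genes, all FLP1, were at 2 to 4 in roots and 5 to 8 in shoots, and 1 of them was called.

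Lipid transfer proteins carry lipids across the cell wall. Of 11 tested genes of that group, 7 were higher in shoots and 1, Csa19g031820, was higher in roots, with 6, 7 and 10 against 1, 2 and 2 (1.92 ± 0.29, adjusted p = 2.88e-03). Csa11g009560 of the same group was at 29, 19 and 7 in roots and 6, 7 and 6 in shoots and did not pass the test (adjusted p = 0.089). It was called without root replicate 3 (1.81), with libraries scaled to a common total (1.55) and in the model of 12 libraries. Under names of the related bifunctional inhibitor family, Csa19g042120 was at 1282, 1144 and 1048 in shoots and Csa01g040200 at 1065, 943 and 911. Both were at 0 in all root libraries and were among the most abundant named shoot genes. Plant defensin 1.3 (Csa07g047370) and germin-like protein 1 (GLP1, Csa09g077160) were also abundant in shoots. The defensin was at 954, 853 and 889 in shoots and at 0 in roots. GLP1 was at 1088, 911 and 877 in shoots and at 2 in each root library (8.58 ± 0.09, adjusted p = 1.07e-07).

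All 9 tested genes of leaf and epidermis development were higher in shoots, with a median root minus shoot difference of -2.71 (-2.61 and -2.75 with pseudocounts of 1 and 0.1). TCP3 (Csa14g063740), a transcription factor that limits growth of the leaf margin, was at 88, 69 and 81 in shoots and 11, 11 and 13 in roots (2.71 ± 0.12, adjusted p = 2.34e-05). AFO (Csa05g004070), a YABBY factor of the lower leaf side, was at 5, 5 and 6 in shoots and at 0 in roots. Ovate family protein 16 (OFP16, Csa05g026870) was at 12, 9 and 13 in shoots and at 0 in roots. Protodermal factor 1 (PDF1, Csa05g008720), a marker of the outermost cell layer, was expressed in both organs, at 100, 102 and 115 in shoots and 34, 30 and 35 in roots (1.66 ± 0.08).

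The zf-HD and bHLH groups of transcription factors lay on the shoot side, while the AP2/EREBP group, given below, did not. All 5 zf-HD members and 13 of 18 bHLH members come from the sheet of genes that fell with salt in shoots. In contrast, 29 of 30 AP2/EREBP members come from the sheet of genes that rose. The contrast between these groups therefore cannot be separated from the choice of sheet. All 5 tested zinc finger homeodomain (zf-HD) genes were higher in shoots, and AtHB31 (Csa14g017460) was at 12, 12 and 13 there and at 0 in roots. Of 11 bHLH genes, 10 were higher in shoots and none in roots. They include PIL6 (Csa06g036750), a phytochrome-interacting factor of light signalling, at 10, 11 and 13, and PRE1 (Csa12g081510), a promoter of cell elongation, at 13, 12 and 10, both at 0 in roots. The bHLH gene with the highest mean, Csa07g034570, did not differ beyond its spread, with 24, 22 and 16 in roots and 21, 17 and 18 in shoots. Among 17 receptor kinases, 10 were higher in shoots and 2 in roots. ERECTA (ER, Csa16g047900), which shapes stems and stomatal patterning, was at 22, 25 and 26 in shoots and 2, 2 and 1 in roots (3.55 ± 0.23). Wall-associated kinase 2 (Csa17g027170) was at 11, 10 and 10 in shoots and at 0 in roots.

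Among annotated genes, PYK10 (Csa19g012710) had the largest difference on the root side. This beta-glucosidase, stored in endoplasmic reticulum bodies of crucifer roots, was at 365, 372 and 399 in roots and 1, 0 and 1 in shoots (8.51 ± 0.47, adjusted p = 6.27e-05). A pair of genes encoding papain family cysteine proteases had the highest values of any named gene in roots. Csa13g048470 was at 2217, 3149 and 2430 in roots against 30, 38 and 39 in shoots (6.16 ± 0.17, adjusted p = 4.66e-06), and Csa08g043550 was at 1651, 1913 and 1777 against 14, 17 and 18 (6.73 ± 0.11, adjusted p = 6.64e-07). The basic chitinase PR3 (Csa01g013580), which attacks fungal cell walls, was at 60, 55 and 61 in roots and at 0 in shoots. A gene listed both as RHD2 and as respiratory burst oxidase protein D (Csa02g042790) was at 17, 14 and 25 in roots and at 0 in shoots. These names denote different Arabidopsis genes of a family that makes reactive oxygen at the cell surface, so the identity of Csa02g042790 is unresolved.

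All 6 tested peroxidases were higher in roots, with a median difference of 3.70 (3.42 and 3.76 with pseudocounts of 1 and 0.1). Secreted peroxidases of this class act on phenolic compounds in the cell wall. Csa10g012330, the most abundant, was at 104, 113 and 185 in roots and 8, 7 and 8 in shoots (4.0 ± 0.24, adjusted p = 8.14e-05). Csa13g041820 was at 56, 32 and 43 in roots and at 0 in shoots.

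Glutathione S-transferases, which conjugate toxic compounds to glutathione, were higher in roots in 8 of 10 cases. The 2 copies of GST1, Csa03g002980 and Csa14g003040, were at 72, 56 and 65 and at 66, 58 and 66 in roots, and at 0 in all shoot libraries. GST6 (Csa05g001450, of the phi class) had the highest mean of the group and a smaller difference, with 204, 221 and 190 in roots against 98, 97 and 83 in shoots (1.14 ± 0.09, adjusted p = 2.66e-04). GST30 (Csa17g014010) went the other way, at 2, 2 and 3 in shoots and at 0 in roots. All 15 members of this group come from the sheet of genes that rose with salt in shoots.

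Of 5 genes linked to glucosinolates, 4 were higher in roots and the remaining gene was not called. A nitrile specifier protein (NSP4, Csa15g021300), which directs glucosinolate breakdown to nitriles, was at 68, 74 and 107 in roots and 4, 3 and 6 in shoots (4.13 ± 0.29, adjusted p = 1.63e-04). Nitrilase 3 (NIT3, Csa09g034150) was at 30, 34 and 47 against 1 in each shoot library (4.62 ± 0.17). MYB29 (Csa13g009720), a regulator of aliphatic glucosinolate synthesis, was at 5, 6 and 6 against 2, 3 and 2 (1.14 ± 0.17).

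Phenylpropanoid and flavonoid genes were divided. Of 11 genes of the phenylpropanoid and lignin group, 4 were higher in roots and 1 in shoots. The 2 copies of cinnamoyl CoA reductase 2 (CCR2), an entry enzyme of lignin synthesis, were at 15, 11 and 13 (Csa09g094110) and 10, 8 and 9 (Csa16g049560) in roots and at 0 in shoots. Of 10 flavonoid and anthocyanin genes, 6 were higher in roots and 3 in shoots. The 6 that were higher in roots reached 26 CPM at most, in a gene of the HXXXD-type acyl-transferases.

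Among genes of ion transport, HKT (Csa08g040240), a transporter that removes sodium from the xylem in Arabidopsis roots, was at 22, 35 and 27 in roots and 3, 3 and 2 in shoots (3.16 ± 0.23, adjusted p = 1.67e-04). KAT1 (Csa11g065760), the inward potassium channel of guard cells, was at 12 in each shoot library and at 0 in each root library. The Na+/H+ exchanger orthologous to SOS1 (Csa04g006390) was at 8, 9 and 8 in roots and 4, 4 and 5 in shoots. Its difference of 0.87 ± 0.11 passed the adjusted p (1.31e-03) and not the threshold on size, which it passed with libraries scaled to a common total (1.16). Of the 7 potassium and sodium transport genes, 2 were called higher in roots and 2 in shoots.

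Of 17 genes for sulfate, phosphate, chloride and boron transport, 7 were higher in roots and none in shoots, and with each library scaled to 1000000 in total, 11 were higher in roots. Chloride channel B was at 33, 24 and 30 in roots and 9, 8 and 10 in shoots for Csa04g014930 (1.63 ± 0.15) and at 39, 25 and 37 against 11, 12 and 11 for Csa09g012970 (1.5 ± 0.18). The third copy, Csa06g007100, was at 51, 30 and 33 against 22, 20 and 21 and was not called (0.80 ± 0.21, but 1.1 and called with libraries scaled to a common total). Phosphate transporter 1 (Csa07g047990) was at 2, 2 and 4 in roots and at 0 in shoots, and sulfate transporter SULTR3;4 (Csa15g020720) at 13, 12 and 9 against 4, 4 and 3 (1.5 ± 0.18). The copies of BOR5 did not both pass the test. Boron transporter BOR5 was at 4, 6 and 6 in roots against 1 in each shoot library for Csa16g038700 (1.94 ± 0.16) and at 1, 2 and 2 against 3 in each shoot library for Csa09g079390, which was not called. Phosphate transporter 4 (Csa08g014220) was at 4 in each root library and 8, 7 and 6 in shoots, also not called.

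Of 6 genes of nitrogen assimilation, 2 were higher in roots and 2 in shoots, and the single nitrate transporter tested was higher in roots. The nitrate transporter NRT1 (Csa17g016300) was at 21, 25 and 34 in roots and 12, 9 and 10 in shoots (1.31 ± 0.21, adjusted p = 3.56e-03). Nitrate reductase 2 (Csa03g040490), which turns nitrate into nitrite, was at 97, 89 and 99 in shoots and 26, 16 and 32 in roots (1.98 ± 0.26, adjusted p = 1.82e-03). Glutamine synthase R1 (Csa11g051370), the cytosolic enzyme that fixes ammonium, was at 72, 65 and 132 in roots and 39, 27 and 35 in shoots (1.34 ± 0.31, adjusted p = 0.015), a call lost without shoot replicate 2 (1.19) or 3 (1.38). Asparagine synthase 1 (ASN1, Csa06g020990) was low, at 5 in each root library and 0, 1 and 0 in shoots.

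Of 18 genes linked to iron and heavy metals, 6 were higher in roots and 2, both ferric reduction oxidases, in shoots, of which the FRO2 gene among the root markers lost its call under several alternatives. Ferritin 1 stores iron. Its copy of highest mean, Csa08g063260, was at 49, 55 and 51 in roots and 29, 36 and 57 in shoots, where the organs overlapped and the gene was not called (0.40 ± 0.26, adjusted p = 0.23). The copy Csa20g001420 was at 43, 56 and 39 in roots and 12, 16 and 22 in shoots (1.46 ± 0.26). SBP3 (Csa19g035500), a selenium-binding protein, was at 10, 15 and 20 in roots and at 0 in shoots.

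Most hormone groups held genes of both directions. Ethylene genes lay mostly on the root side, with 16 of 28 genes higher in roots, 3 higher in shoots and a median difference of 1.43 (1.04 and 1.99 with pseudocounts of 1 and 0.1, since 6 of the genes were at 0 in all shoot libraries). ACC oxidase 1 (Csa00441s160), which makes ethylene from its precursor, was at 108, 81 and 86 in roots and 16, 17 and 19 in shoots (2.36 ± 0.13, adjusted p = 6.18e-05). ACC oxidase 2 (Csa09g097000) overlapped between the organs, with 101, 99 and 150 in roots and 100, 100 and 75 in shoots. A further enzyme of the last step, listed as ethylene-forming enzyme, was higher in shoots in both its copies, with 69, 59 and 59 against 6, 7 and 5 for Csa17g008270 (3.28 ± 0.14) and 53, 49 and 46 against 4, 7 and 4 for Csa14g006260 (3.22 ± 0.23). Among ethylene response factors, ERF105 was higher in roots in both copies. Csa11g082690 was at 21, 41 and 65 in roots against 2, 2 and 6 in shoots (3.5 ± 0.58) and Csa18g022000 at 27, 50 and 77 against 4, 4 and 9 (3.04 ± 0.50). The root libraries differed among themselves for this factor, and in both copies replicate 3 was the highest in each organ.

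Of 37 genes of auxin synthesis and response, 11 were higher in roots and 14 in shoots. A SAUR gene (Csa12g001660), of a family that acts in cell expansion, was at 32, 36 and 33 in shoots and at 0 in roots, and 2 further SAUR genes were likewise at 0 in roots. The repressor IAA7 (Csa01g027520) was at 30, 25 and 27 in shoots and 1, 1 and 2 in roots (3.96 ± 0.23). GH3.5 (Csa11g016940), which conjugates auxin to amino acids, was at 7, 9 and 14 in roots and 2 in each shoot library (2.02 ± 0.25). Auxin transport genes lay on the root side in 3 of 4 cases. WAG1 (Csa17g094210), a kinase acting on auxin efflux carriers, was at 4, 4 and 6 in roots and at 0 in shoots.

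Of 20 gibberellin genes, 10 were higher in shoots and 5 in roots. The receptor GID1B was higher in roots in all 3 homeologues, and Csa16g001570 was at 16, 14 and 17 against 1 in each shoot library (3.43 ± 0.08, adjusted p = 2.73e-06). The repressor RGL1 was higher in shoots in all 3 of its homeologues, and Csa07g030410 was at 44, 36 and 38 against 9, 8 and 7 in roots (2.23 ± 0.12, adjusted p = 5.55e-05). A 2-oxoglutarate-dependent oxygenase of this group (Csa11g032930) was at 53, 66 and 51 in roots and 1 in each shoot library (5.24 ± 0.11). GASA4 (Csa20g021720), a gibberellin-regulated peptide, was at 130, 128 and 124 in shoots and 48, 41 and 49 in roots (1.46 ± 0.08).

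Cytokinin oxidase/dehydrogenase 6 (Csa07g001160), which degrades cytokinin, was at 21, 19 and 18 in roots and 7, 9 and 8 in shoots (1.23 ± 0.11). In the jasmonate group, allene oxide cyclase 2 (Csa06g005340) was at 26, 25 and 34 in roots against 6, 9 and 6 in shoots (1.95 ± 0.21), while 3 of the 5 tested genes were higher in shoots, among them lipoxygenase 4 (Csa09g076110) at 2 in each shoot library and 0 in roots. Sterol methyltransferase 3, an enzyme of sterol synthesis, was higher in roots in all 3 homeologues, and Csa16g040220 was at 19, 21 and 25 against 8, 8 and 7 (1.43 ± 0.12). Squalene epoxidase 6 (SQE6, Csa08g018500) was at 33, 36 and 41 in shoots and at 0 in roots. The bZIP factor TGA1 (Csa02g073440) was at 28, 37 and 49 in roots and 4, 5 and 4 in shoots (2.96 ± 0.22).

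Cell wall genes divided almost evenly, with 16 of 44 higher in roots and 17 in shoots, and related genes took opposite directions. Expansins loosen the wall during growth. Expansin A8 (EXP8, Csa06g045040) was at 74, 67 and 80 in shoots and 1, 1 and 2 in roots (5.38 ± 0.23), whereas expansin A4 (Csa04g053820) was at 71, 71 and 42 in roots and 22, 15 and 18 in shoots (1.69 ± 0.26). Expansin B3 (Csa10g014410) was also higher in roots, with 76, 79 and 39 against 22, 20 and 23 (1.49 ± 0.30). The same held for arabinogalactan proteins, which are glycoproteins of the cell surface. AGP17 (Csa07g053170) was at 53, 52 and 53 in shoots and at 0 in roots, and AGP5 (Csa17g063290) at 35, 30 and 31 in roots and 3, 2 and 5 in shoots (3.16 ± 0.30). Among genes acting on pectin, a pectin lyase (Csa18g036730) was at 140, 117 and 120 in shoots and at 0 in roots, and a pectin methylesterase inhibitor (PMEI, Csa06g054090) at 41, 30 and 34 in roots and at 0 in shoots. Further genes named pectin lyase were higher in roots, at 9, 9 and 8 and at 5, 5 and 4, and at 0 in shoots.

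In sugar metabolism, 9 of 32 genes were higher in roots and 7 in shoots. A galactose mutarotase (Csa19g003320) was at 85, 140 and 111 in roots and at 0 in shoots. Galactinol synthase 4 (Csa16g052330), which starts the synthesis of raffinose sugars, was at 21, 30 and 23 against 0, 1 and 1 (4.58 ± 0.49). Fructokinase-like 2 (Csa07g035870), a protein of the plastid nucleoid, was at 26, 30 and 34 in shoots and 1 in each root library (4.34 ± 0.11). Starch degradation genes were higher in shoots in 4 of 9 cases (44.4%), near the 44.6% of all named genes, and never in roots. An alpha-amylase family gene (Csa15g030630) was at 38, 45 and 47 in shoots and 5, 4 and 3 in roots (3.30 ± 0.19), as were its 2 homeologues at lower values.

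Of 10 respiration genes, 4 (40%) were higher in shoots, near the 44.6% of all named genes, and 1 in roots. Fumarase 2 (Csa02g041670), the cytosolic form, was at 49, 54 and 43 in shoots and 2, 1 and 1 in roots (4.78 ± 0.24, adjusted p = 4.08e-05). Alternative oxidase 1A (Csa15g036960) was at 12, 12 and 15 in shoots and 1, 1 and 2 in roots (2.92 ± 0.24). Alcohol dehydrogenase 1 (ADH1, Csa07g048690), of fermentation, was at 425, 70 and 291 in roots and 7, 6 and 7 in shoots (4.85 ± 0.70, adjusted p = 2.58e-03). Root replicate 2 stood far below the other root libraries for this gene and was still far above the shoot libraries.

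In the group of histones, DNA synthesis and cell cycle, 16 of 29 genes were not called. A further 12 (41.4%) were higher in shoots, near the 44.6% of all named genes. The 1 gene higher in roots was cyclin CYCD3;1 (Csa12g009530), with 28, 25 and 24 against 10 in each shoot library (1.31 ± 0.06). Only 1 of the 12, histone H2A 13 (HTA13, Csa15g031010), encodes a histone, at 18, 20 and 18 against 9 in each root library (1.01 ± 0.05). Its call, close to the threshold, was lost with a pseudocount of 1, with libraries scaled to a common total, with quantile normalisation and without shoot replicate 2. Of 20 heat stress genes, 6 were higher in roots and 1 in shoots. Heat shock factor 4 (HSF4, Csa12g004270) was at 69, 65 and 63 in roots and 6, 5 and 6 in shoots (3.43 ± 0.08, adjusted p = 2.77e-06). Dehydrins, which protect cells during drying, were abundant in both organs. ERD14 (Csa07g047700) was higher in roots, at 209, 229 and 214 against 83, 81 and 81 in shoots (1.41 ± 0.04, adjusted p = 7.16e-06). The LTI29 copies were not called, with values of 300, 406 and 283 in roots and 229, 280 and 241 in shoots for Csa17g026310 and of 239, 308 and 241 against 314, 328 and 275 for Csa03g024270. Csa17g026310 was called with quantile normalisation (1.09) and under no other alternative run.

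Large enzyme families and broad stress groups held genes of both directions. Of 41 cytochrome P450 genes, which hydroxylate hormones and secondary compounds, 15 were higher in roots and 10 in shoots, and of 22 UDP-glycosyltransferases, which attach sugars to such compounds, 9 and 6. In the biotic stress group 14 of 31 genes were higher in roots and 9 in shoots. The abiotic stress group leaned the other way, with 13 of 23 (56.5%) higher in shoots and 3 (13%) in roots. Of all named genes, 44.6% were higher in shoots and 22.8% in roots. Amino acid and peptide transporters were higher in shoots in 6 of 11 cases (54.5%) and in roots in 1. Genes of fatty acid metabolism were higher in shoots in 7 of 17 cases (41.2%), near the share of all named genes, and in roots in 1. Of 12 AP2/EREBP transcription factors, the family that includes the ethylene response factors, 5 were higher in roots and none in shoots. Of the 30 members of that list, 29 come from the sheet of genes that rose with salt in shoots. For the abscisic acid group the counts and the median differed in sign, with 6 of 21 genes higher in shoots, 4 in roots and a median difference of 0.53.

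The largest differences of all belonged partly to genes with no name in the sources used here. Among those higher in roots, Csa16g032480 was at 596, 742 and 561 and Csa15g010620 at 569, 583 and 630, and both were at 0 in every shoot library. Among those higher in shoots, Csa07g053030 was at 2601, 2758 and 2476 in shoots and 1, 1 and 0 in roots, and Csa05g042110 at 897, 1454 and 1356 and at 0 in roots.

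Genes taken as homeologues were often called in the same direction. Named genes that share an Arabidopsis ortholog (64 groups) or a name alone (17 groups) and lie on 3 different chromosomes formed 81 groups of 3 copies. All 3 copies were higher in shoots in 34 groups and higher in roots in 14. Of single named genes, 44.6% were called higher in shoots and 22.8% in roots, and of all genes tested 17.1% and 15.2%. In 11 groups 2 copies were called in 1 direction, in 8 groups 1 copy, and in 13 groups none. The remaining group, the organic cation transporter, held called genes of both directions. It was joined by its name alone, and none of the other groups lies on the same set of chromosomes, so its genes may not be homeologues. Csa01g023720 was at 3, 2 and 3 in roots against 1 in each shoot library (1.06 ± 0.15, a call lost with a pseudocount of 1 and with median-of-ratios scaling), and Csa09g093580 at 3 in each shoot library and 0 in roots. The range of the 3 differences within a group had a median of 0.84 on the log2 scale. A group needed 3 named copies, and many names come from sheets chosen with the same control shoot libraries. The agreement within groups is therefore not independent evidence. Where homeologues are nearly identical, reads can be shared between copies, which would make their values more alike than they are.

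Called genes were spread over all 20 chromosomes. The share called higher in roots ranged from 12.5% on chromosome 1 to 17.6% on chromosome 5, and the share called higher in shoots from 15.4% to 18.2%. Some neighbouring genes, in the order of their gene IDs, were called together. There were 10 neighbours higher in roots on chromosome 9, with differences of 1.18 to 6.74, 9 on chromosome 2 with differences of 1.80 to 8.39, and 8 neighbours higher in shoots on chromosome 16 with root minus shoot differences of -9.68 to -1.58. NSP4 stood in a run of 5 genes on chromosome 15 that were higher in roots by 4.13 to 7.57. Plant defensin 1.3 stood in a run of 5 on chromosome 7 that were all at 0 in roots and had mean values of 7.0 to 899 in shoots. Neighbours can be tandem copies that share reads, which was not tested.

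The same organ contrast was run in the salt-treated libraries, which share no sample with the control libraries. Of the 7462 genes called higher in control roots, 5036 (67.5%) were also called higher in salt-treated roots, 61 were called higher in salt-treated shoots, 2215 were not called and 150 were not tested. Of the 8431 called higher in control shoots, 6979 (82.8%) were called in the same direction, 22 in the opposite direction, 1398 were not called and 32 were not tested. In that contrast, 14.2% of 49716 genes tested were called higher in roots and 17.8% in shoots.

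For a few genes described above, the values in salt-treated plants were as follows. HKT (Csa08g040240) was at 104, 115 and 72 in salt-treated roots and at 0 in salt-treated shoots, and NSP4 (Csa15g021300) at 109, 92 and 106 and at 0, so that both lost their low shoot values. ADH1 (Csa07g048690) was at 80, 93 and 229 in salt-treated roots and 165, 75 and 122 in salt-treated shoots, where the organs overlapped and the gene was not called. The papain family protease Csa08g043550 remained higher in roots, with a difference of 9.57 against 6.73 in control plants (interaction adjusted p = 4.25e-05). The difference of PYK10 (Csa19g012710) was 6.61 with salt against 8.51 without (interaction adjusted p = 0.057) and that of the peroxidase Csa10g012330 was 4.78 against 4.0 (interaction adjusted p = 0.24), and neither change passed the test.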

How the data were processed

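RNA of roots and shoots was sequenced from control and salt-treated plants, with 3 libraries in each of 4 groups. The submitters' processing notes name Trimmomatic, STAR, DESeq and edgeR, with no versions stated. The authors mapped reads to the C. sativa genome, counted them per gene and converted the counts to CPM, which they normalised further. The deposited table holds the resulting score, rounded to whole numbers, for 49932 genes. Library depth is not given, so no counting interval could be set, and no count model was used. The median variance between replicates was 1 at a median level of 9.67. The libraries were stranded, but whether counting used the strand is not given, so overlapping genes may share reads.

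Columns were matched to samples by the sample descriptions, and no value column was left unmatched. Genes at 1 CPM or more in 3 of the 6 control libraries were fitted with limma 3.58.1 in R 4.3.3 on log2(value + 0.5), with a trend in the prior variance, no replicate block and two-sided tests. P values were adjusted over all genes tested, and the thresholds (adjusted p at most 0.05, log2 difference above 1) are those of the study. The same fit was made in the 6 salt-treated libraries, and interactions in a model of all 12. The fit was tested on simulated data. Shares of library totals were compared by two-sided exact permutation tests, which cannot go below p = 0.1. P values measure the spread between these libraries, which the labels do not tie to separate plants. Alternatives were other pseudocounts, filters, scalings and variance models, a replicate block, and leaving out each library or the Rubisco small subunit genes.

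Gene lists hold the genes that the study names under a topic or in a functional bin of its sheets, and the members and lists were chosen with earlier results of these data known. Genes to name were, in each direction, the 10 annotated genes with the largest difference, the 10 most abundant and 2 unannotated genes, all markers, and in each list the 2 largest differences, the highest mean and called members against the majority. Not every gene given by this rule is described. Of the 119 genes described, 21 lie outside it and were chosen after their values were seen.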

Additional observations from a re-analysis of the deposited data

Results flagged for a closer look

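The organ difference (root minus shoot, log2) of 16 described genes moved by over 3 between control and salt-treated plants, each with an adjusted p of at most 0.05 in limma's interaction test. They were flagged because the same contrast differed between the treatments. Of 108 described genes called in control plants, 80 passed the interaction test. The share among all 49928 genes tested was 12.3%, counted at an adjusted p of at most 0.05 with a further cut of an absolute log2 change above 1. Many of the names come from sheets of genes that responded to salt, which were chosen on these libraries. The values below are fitted on log2(CPM + 0.5). They depend on the pseudocount where an organ was at 0 in all libraries of a treatment. This held for GST1, the Rubisco small subunit gene Csa12g084200, OFP16, LTL1, the pectin lyase, HKT, NSP4 and MYB29, and not for the RBCS1A copies.

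The difference shifted towards shoots with salt by -5.06 for ASN1 (Csa06g020990), -4.79 for ADH1 (Csa07g048690) and -4.36 for allene oxide cyclase 2 (Csa06g005340). The shift was -4.20 and -3.97 for the GST1 copies Csa14g003040 and Csa03g002980, -3.40 for chloride channel B (Csa09g012970) and -3.11 for AGP5 (Csa17g063290).

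It shifted towards roots by 3.10 for MYB29 (Csa13g009720), 4.42 for HKT (Csa08g040240) and 3.55 for NSP4 (Csa15g021300), all higher in roots without salt. Among genes higher in shoots without salt, the shift was 3.46 and 3.54 for RBCS1A (Csa05g079910 and Csa16g026850), 3.78 for the further Rubisco small subunit gene Csa12g084200, 3.47 for LTL1 (Csa01g005030), 3.72 for the pectin lyase (Csa18g036730) and 3.9 for OFP16 (Csa05g026870). Groups of 3 libraries are too small for a test of single libraries that stand apart.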

How the results depend on the processing

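The counts of genes called higher in roots and in shoots stayed within 1.5 times of 7462 and 8431 under every alternative run. Leaving out a library gave 5339 to 7507 genes higher in roots and 6325 to 8409 higher in shoots. The lowest counts came when a library of the higher organ was left out, since a gene at 0 in the other organ then cannot reach 3 libraries at 1 CPM. With a replicate block the counts were 7336 and 8368. Replicates of the same number were correlated at r = 0.08, 0.02 and 0.21 in their deviations over 23123 genes, so the numbers were not taken to pair the libraries. Without the Rubisco small subunit genes the shoot shares were 3.13% for the 10 and 11.4% for the 100 most abundant genes. Of 4586 values of named genes under alternatives, 73 lost their call and 15 gained one. A named gene that did not pass the filter under an alternative has no value there and is not counted as lost. Signs changed for LTI29 (Csa03g024270; 0.081 with libraries scaled to 1000000, 0.49 with quantile normalisation), AtAGAL2 (Csa13g010420; -0.051 to 0.45 as each library was left out) and AAP2 (Csa20g012380; -0.073 with median-of-ratios scaling, -0.18 to 0.17 as each library was left out), none of which was called, and the cause was not tested. Of the 342 counts for lists, 18 moved by over 1.5 times, 13 of them with that scaling to 1000000. FRO2 (Csa14g001580) lost its call under 8 alternatives. Rounding to whole numbers limits genes of low value.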
